A study of Homo sapiens with 8 samples.

Results

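The 10 genes described here decide in large part where pyruvate, the end product of glycolysis, goes in a cell. They were chosen by symbol from a table of 15176 genes whose unit is log2 CPM, in which reads are scaled to a common library size and put on a log2 scale. The 10 are the pyruvate dehydrogenase kinases PDK1, PDK2 and PDK3, the phosphatase subunit PDP1, the pyruvate dehydrogenase E1 subunits PDHA1 and PDHB, the lactate dehydrogenase subunits LDHA and LDHB, and the mitochondrial pyruvate carrier subunits MPC1 and MPC2. All 10 were in the table and all 10 passed the filter for testing, a mean log2 CPM above 0.

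The cells were Panc1, an established human line of pancreatic ductal adenocarcinoma (PDAC), and RNA sequencing was the assay. Control siRNA (siCtrl) was given to 5 libraries, of which 2 came from cells at 21% O2 (normoxia, library numbers 1 and 4) and 3 from cells at 1% O2 (hypoxia, numbers 2, 5 and 8). An siRNA against SF3B1 (siSF3B1), which encodes a spliceosome subunit, was given to 3 libraries at 1% O2 (numbers 3, 6 and 9). The labels give 8 h at 1% O2 for siSF3B1 cells, and their wording does not settle whether that time also holds for siCtrl cells. No siSF3B1 group at 21% O2 was analysed here, the siRNA sequences are not given in the sources used here, and the labels do not say that libraries are separate cultures. The p-values therefore reflect only how far libraries of a group differ, and that spread may be technical.

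Pyruvate reaches the mitochondrial matrix through a carrier built from MPC1 and MPC2. There the pyruvate dehydrogenase complex turns it into acetyl-CoA for the citric acid cycle. The kinases phosphorylate the E1 alpha subunit and switch the complex off, and the phosphatases switch it on again. Pyruvate that stays in the cytosol can be reduced to lactate by lactate dehydrogenase, which regenerates the NAD+ that glycolysis needs. PDK1 and LDHA are known as targets of the hypoxia-inducible factor HIF-1, which binds the DNA letters ACGTG or GCGTG.

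Across all libraries the recovered depth was 20496492 to 25257173 reads. SF3B1 was 10.7-fold lower with siSF3B1 than with siCtrl at 1% O2 (log2 difference -3.42, SE 0.0776, limma adjusted p = 9.69e-09). The 9 markers of ductal epithelium were all in the table, and their summed level was 5396 to 6379 CPM in normoxia, 4999 to 6404 CPM in siCtrl hypoxia and 8184 to 10990 CPM with siSF3B1. KRT8, KRT18 and KRT19 made up 92.2 to 97.1% of this sum and were higher in every siSF3B1 library than in any siCtrl library. KRT7 (3.41, 3.56 and 3.60 log2 CPM in siCtrl hypoxia; 1.69, 2.19 and 2.37 with siSF3B1) and KRT80 (7.06, 7.20 and 6.48; 5.91, 6.01 and 5.52) were lower, and the other 4 ductal markers overlapped between these groups. Of the 6 acinar and endocrine markers none was analysed here. In normoxia, siCtrl hypoxia and siSF3B1 libraries, 3 of 7 fibroblast markers summed to 24.4 to 46.4, 29.99 to 61.7 and 31.7 to 55.7 CPM. Of these 3, THY1 was higher in every siSF3B1 library (4.19 to 4.26 log2 CPM) than in any siCtrl library (2.81 to 2.95). COL1A1 and PDGFRB had lower means with siSF3B1 than in siCtrl hypoxia, with overlapping libraries. In the same order of groups, 1 of 5 blood and endothelial markers stood at 0.638 to 0.846, 0.959 to 1.21 and 1.93 to 3.23 CPM. The library size that the deposited values imply was 1.02 to 1.06 times the read total in siCtrl libraries and 0.927 to 0.949 times in siSF3B1 libraries. In bulk RNA, fewer cells of a type and less RNA per cell cannot be told apart.

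**Figure D1:**
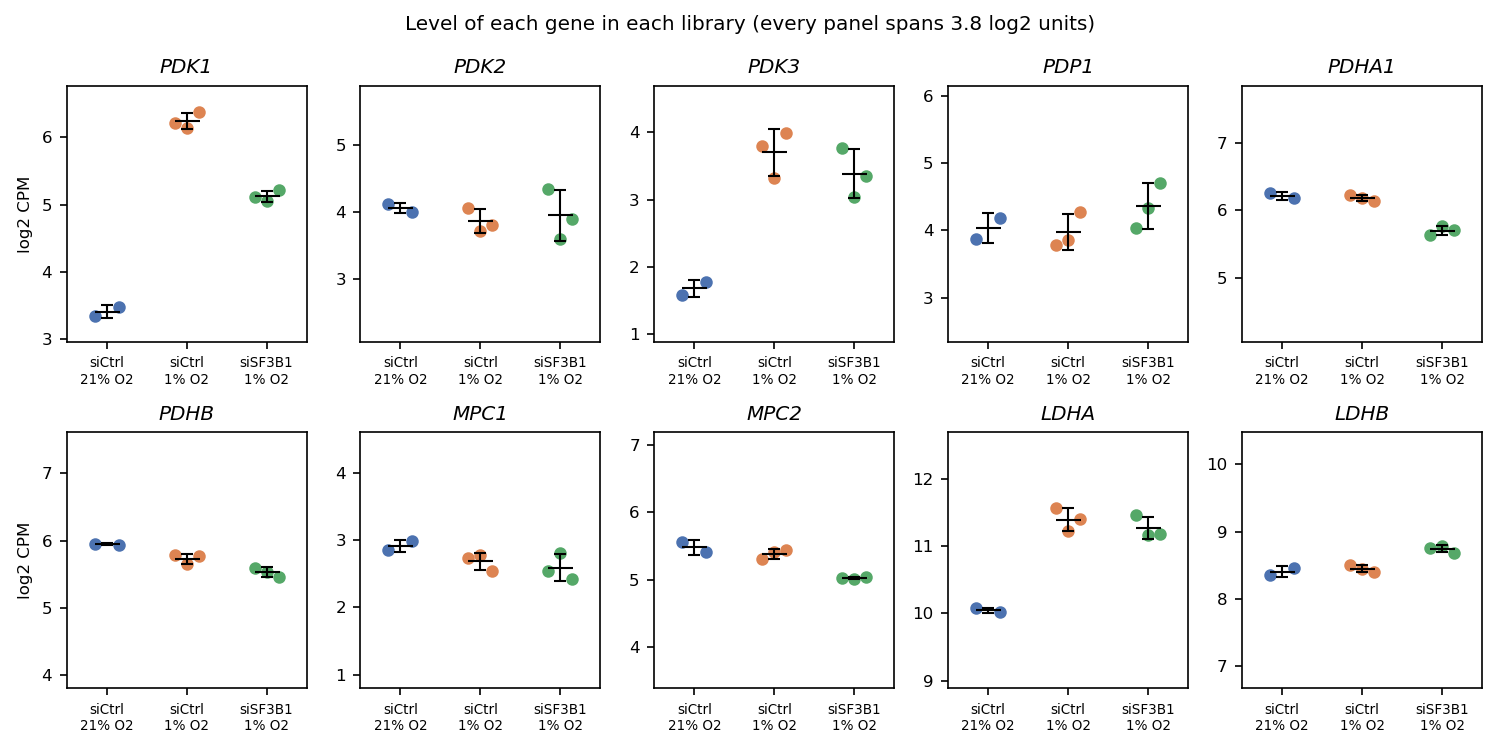
Level of each of the 10 genes in log2 CPM (vertical axis) in the 3 groups (horizontal axis). Points are libraries, horizontal bars are group means and whiskers are SD (n = 2, 3 and 3). PDK1, PDK3 and LDHA lie higher in every library at 1% O2 than in either library at 21% O2, and PDK1 lies lower with siSF3B1 than with siCtrl at 1% O2.

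The first comparison asked what 1% O2 changed in siCtrl cells. PDK1, PDK3 and LDHA rose, and the other 7 genes did not pass the test. These 3 of 10 stand beside a background of 5.65% of all 13112 genes tested that were called at an adjusted p under 0.05, 4.35% higher and 1.3% lower. The median log2 difference was -0.04 over the 10 genes and -0.02 over all genes tested. With sets of neighbouring library numbers as a block (1 to 3, 4 to 6 and 7 to 9), 1645 genes were called in place of 741, and the same 3 of the 10. Leaving out normoxia library 1 or 4, or siCtrl hypoxia library 2 or 8, gave 278, 306, 418 and 411 genes, each time with the same 3 of the 10.

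PDK1 (Entrez gene 5163, chromosome 2, 172555373 to 172608669, plus strand, GENCODE 29 on GRCh38, up to 12 exons) encodes a kinase that phosphorylates the complex. Its level was 3.35 and 3.48 log2 CPM in the normoxia libraries 1 and 4, and 6.21, 6.13 and 6.38 in the siCtrl hypoxia libraries 2, 5 and 8. Every hypoxia library lay above both normoxia libraries, by far more than the spread within either group. The rise was 2.83 on the log2 scale, 7.11-fold (95% CI 2.61 to 3.05, limma adjusted p = 1.26e-07), and only 0.14% of genes tested had a larger change in either direction. It rested on 238 and 291 reads in normoxia and on 1527 to 1988 reads in siCtrl hypoxia.

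PDK3 (Entrez gene 5165, chromosome X, 24465221 to 24541862, plus strand, up to 12 exons), another kinase of the family, was the gene with the fewest reads in normoxia, 69 and 88. Its level was 1.59 and 1.78 log2 CPM in normoxia and 3.79, 3.32 and 3.99 in siCtrl hypoxia. The groups did not overlap, although the hypoxia libraries differed more among themselves (SD 0.343) than those of PDK1 (SD 0.125). PDK3 rose by 2.02 on the log2 scale, 4.05-fold (95% CI 1.49 to 2.54, limma adjusted p = 0.000616). PDK2 (Entrez gene 5164, chromosome 17, 50094737 to 50112152, plus strand), the third kinase of the set, stood at 4.11 and 4.002 log2 CPM in normoxia and at 4.06, 3.72 and 3.81 in siCtrl hypoxia. Its groups overlapped and the difference was -0.19 (95% CI -0.62 to 0.24, limma adjusted p = 0.632). Its value is uncertain to the extent that 38.5% of its exon bases are also exon of SAMD14 on the opposite strand. No source used here states whether counting was by strand. SAMD14 had 39 to 79 reads per library, against 255 to 424 for PDK2.

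LDHA (Entrez gene 3939, chromosome 11, 18394388 to 18408425, plus strand, up to 8 exons), the subunit associated with making lactate from pyruvate, was the most abundant of the 10. It stood at 10.07 and 10.01 log2 CPM in normoxia and at 11.56, 11.22 and 11.39 in siCtrl hypoxia, that is from 25413 reads in library 1 to 69473 reads in library 2. The groups were well separated. LDHA rose by 1.35 on the log2 scale, 2.54-fold (95% CI 1.09 to 1.60, limma adjusted p = 7.55e-05). LDHB (Entrez gene 3945, chromosome 12, 21635342 to 21757857, minus strand), whose subunit favours the reverse reaction, stood at 8.36 and 8.46 in normoxia and at 8.50, 8.45 and 8.40 in siCtrl hypoxia. These libraries overlapped, and the difference was 0.04 (95% CI -0.11 to 0.19, limma adjusted p = 0.779), an interval far below the rise of LDHA. LDHA has 6 and LDHB 3 annotated pseudogenes, none of which was analysed here, and no source used here states how reads that map to several places were treated. LDHB also shares 33.4% of its exon bases with AC010197.2 on the same strand.

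The promoters of the 3 genes that rose are shown because HIF-1 binds these letters, and those of PDK2 and PDHB because they hold the same letters in genes that did not pass the test. Each stretch of 30 bases comes from the 250 bases before a RefSeq transcript start (GRCh38.p14), written 5′ to 3′ on the strand of the gene. Capitals mark ACGTG on either strand, so it reads CACGT on the strand shown when it lies on the other, and the palindrome CACGTG holds both.
PDK1 (chr2:172556060-172556089, plus strand): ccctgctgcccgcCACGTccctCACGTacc
PDK3 (chrX:24465212-24465241, plus strand): tcgcgcgccgcgtACGTGcagcaaccgact
LDHA (chr11:18394366-18394395, plus strand): agactcccagcgCACGTGgagcagtctgcc
LDHA (chr11:18394470-18394499, plus strand): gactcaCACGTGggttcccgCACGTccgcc
PDK2 (chr17:50095210-50095239, plus strand): cccgggggaagcCACGTGccggggcggaag
PDHB (chr3:58434051-58434080, minus strand): acaccgaccaggCACGTGtgcccagcgtgc
PDHB (chr3:58433848-58433877, minus strand): ggcggggcctgctCACGTctgccggcccct
A window was matched for 9 of the 10 genes. ACGTG was found on either strand for 5 of these 9, which are the 5 genes printed, against 21.7% of 27305 genes with such windows. GCGTG was found for 6 of 9 against 36.2%. Counted to the first base, the PDK1 pair lies 17 and 8 bases before the transcript start and the PDK3 match 61 bases before it. LDHA has 5 matches in 1 window, where each CACGTG counts as a match on both strands, so matches outnumber separate sites. A match describes the letters only, since neither factor binding nor protein was measured in the data used here.

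The subunits of the complex, the carrier and the phosphatase showed small differences at 1% O2. PDHA1 (Entrez gene 5160, chromosome X, 19343893 to 19361705, plus strand), the E1 alpha subunit that the kinases phosphorylate, stood at 6.26 and 6.18 log2 CPM in normoxia and at 6.23, 6.19 and 6.14 in siCtrl hypoxia. The libraries overlapped, and the difference was -0.03 (95% CI -0.19 to 0.13, limma adjusted p = 0.852). MAP3K15, which shares 21.3% of the PDHA1 exon bases on the opposite strand, rose by 0.90 on the log2 scale (limma adjusted p = 0.00857) from a much lower level, 1.18 log2 CPM. PDHB (Entrez gene 5162, chromosome 3, 58427630 to 58433857, minus strand), the E1 beta subunit, stood at 5.96 and 5.94 in normoxia and at 5.79, 5.65 and 5.77 in siCtrl hypoxia. All 3 hypoxia libraries were below both normoxia libraries, yet the difference of -0.21 (95% CI -0.38 to -0.04) did not pass after adjustment over all genes (limma adjusted p = 0.163).

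MPC1 (Entrez gene 51660, chromosome 6, 166364919 to 166383013, minus strand) was the lowest-read gene at 1% O2, with 100 to 151 reads, so its precision is limited. Its level was 2.86 and 2.98 log2 CPM in normoxia and 2.73, 2.78 and 2.54 in siCtrl hypoxia, a difference of -0.24 (95% CI -0.58 to 0.11, limma adjusted p = 0.444). Its partner MPC2 (Entrez gene 25874, chromosome 1, 167916729 to 167937040, minus strand) stood at 5.56 and 5.41 in normoxia and at 5.30, 5.42 and 5.44 in siCtrl hypoxia, a difference of -0.09 (limma adjusted p = 0.574). PDP1 (Entrez gene 54704, chromosome 8, 93857807 to 93926066, plus strand), a catalytic phosphatase subunit that reactivates the complex, stood at 3.87 and 4.19 in normoxia and at 3.78, 3.86 and 4.27 in siCtrl hypoxia. The PDP1 libraries overlapped widely, with a difference of -0.06 (95% CI -0.51 to 0.40, limma adjusted p = 0.908).

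**Figure D2:**
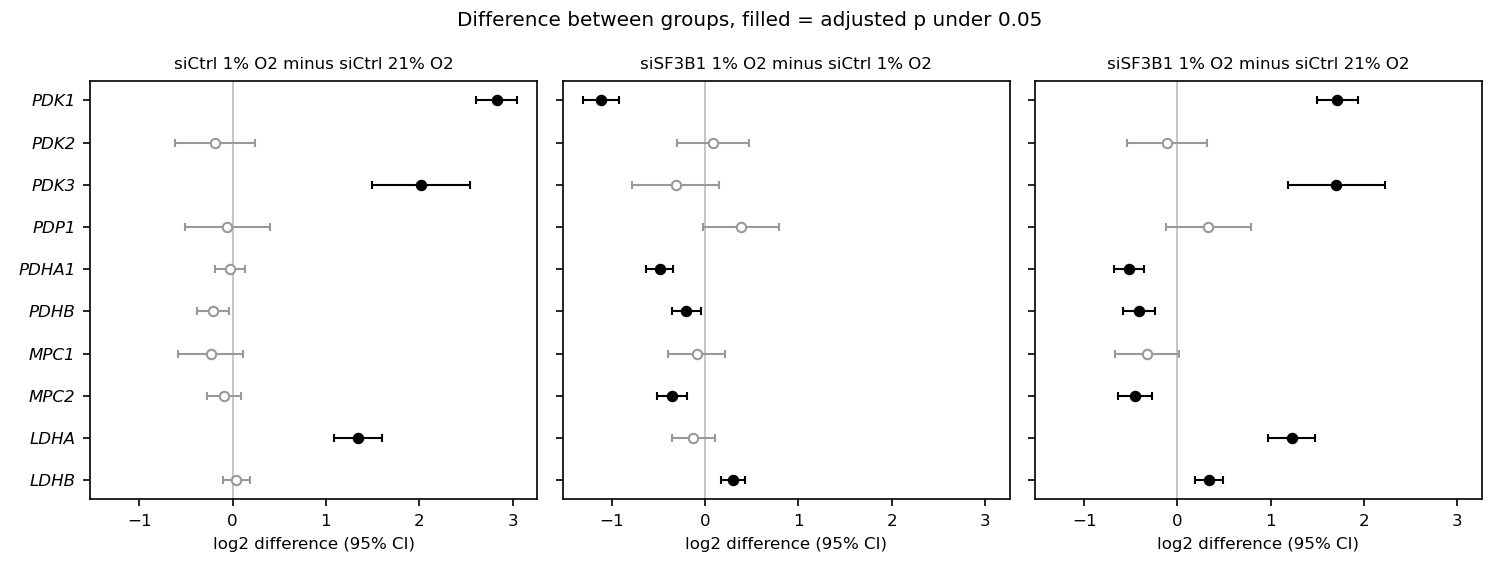
Difference in log2 CPM between groups (horizontal axis) for each of the 10 genes, in 3 comparisons. Points are limma estimates, whiskers are 95% confidence intervals, and filled points have an adjusted p under 0.05. The rise of PDK1, PDK3 and LDHA at 1% O2 stands apart from the other 7 genes, and with siSF3B1 PDK1 has the largest difference of the 10.

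The second comparison asked what siSF3B1 changed in cells at 1% O2. PDK1, PDHA1, MPC2 and PDHB fell and LDHB rose. These 5 of 10 stand beside a background of 66.0% of all genes tested, 35.0% higher and 30.9% lower. Leaving out siSF3B1 library 3 gave 7 of the 10, and leaving out siSF3B1 library 9 gave 4. Whether the share among the 10 differs from that of the table was not tested. The median log2 difference was -0.16 over the 10 genes and 0.03 over all genes tested. Among the ductal markers 3 keratins were higher in the siSF3B1 libraries while KRT7 and KRT80 were lower, and the part of these shifts in the results was not tested. The implied library sizes were lower in these libraries too. With each library scaled by its plain read total, the median of all genes moved from 0.03 to -0.10, all 5 calls held, and the calls over all genes went from 4595 higher and 4055 lower to 3551 higher and 4956 lower. With each library centred on its median, the 10 genes gave 2 higher and 3 lower.

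PDK1 had the largest change of the 10. Its level with siSF3B1 was 5.12, 5.05 and 5.21 log2 CPM in libraries 3, 6 and 9, below every siCtrl hypoxia library and above both normoxia libraries. PDK1 fell by 1.12 on the log2 scale, 2.17-fold (95% CI -1.31 to -0.92, limma adjusted p = 2.48e-06). In the whole table this change was not extreme, as 10.4% of genes tested had a larger one.

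The other kinases did not pass the test. PDK3 with siSF3B1 stood at 3.77, 3.04 and 3.35 log2 CPM, a difference of -0.31 (95% CI -0.78 to 0.15, limma adjusted p = 0.212). Libraries 3 and 9 were within the siCtrl hypoxia range. The difference was -0.51 without library 3 and passed (limma adjusted p = 0.0475), but was -0.14 without library 6 (limma adjusted p = 0.576) and -0.17 without siCtrl hypoxia library 8 (limma adjusted p = 0.534), and it passed in 1 of 18 alternatives. PDK2 stood at 4.34, 3.60 and 3.90, the widest spread of the 10 in this group (SD 0.373), with a difference of 0.08 (95% CI -0.30 to 0.47, limma adjusted p = 0.684) that turned to -0.05 with plain read totals and to -0.11 without library 3.

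Among the E1 subunits PDHA1 was lower in every siSF3B1 library, at 5.63, 5.77 and 5.70 log2 CPM, than in any siCtrl library. PDHA1 fell by 0.49 on the log2 scale, 1.40-fold (95% CI -0.63 to -0.34, limma adjusted p = 9.35e-05). MAP3K15 on the opposite strand had a difference of -0.16 (limma adjusted p = 0.347). PDHB was at 5.60, 5.54 and 5.46, just below the siCtrl hypoxia libraries, and fell by 0.20, 1.15-fold (95% CI -0.36 to -0.05, limma adjusted p = 0.0260). The PDHB call was lost with median-centred libraries (-0.14, adjusted p = 0.117), without siCtrl hypoxia library 2 (-0.18, adjusted p = 0.0903) or 8 (-0.18, adjusted p = 0.0761), and without siSF3B1 library 9 (-0.16, adjusted p = 0.0903), all from limma.

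The carrier subunits gave unlike values. MPC2 stood at 5.02, 5.02 and 5.05 log2 CPM with siSF3B1, below all 5 siCtrl libraries, and fell by 0.36, 1.28-fold (95% CI -0.52 to -0.19, limma adjusted p = 0.00160). DCAF6, which shares 22.5% of the MPC2 exon bases on the opposite strand, had a difference of 0.04 (limma adjusted p = 0.604). It was the more abundant of the pair, with 1720 to 2196 reads per library against 628 to 1116 for MPC2. MPC1 stood at 2.55, 2.81 and 2.42, overlapping the siCtrl hypoxia libraries, with a difference of -0.09 (95% CI -0.40 to 0.22, limma adjusted p = 0.585) that turned to 0.05 with quantile normalization. The difference between the subunits was not tested.

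Of the lactate dehydrogenase subunits, LDHB rose and LDHA did not pass the test. LDHB stood at 8.77, 8.79 and 8.69 log2 CPM with siSF3B1, above all 5 siCtrl libraries, and rose by 0.30, 1.23-fold (95% CI 0.17 to 0.43, limma adjusted p = 0.00122). That rise was 0.17 with plain read totals (adjusted p = 0.0263) and 0.12 with quantile normalization, which lost the limma call (adjusted p = 0.0786). LDHA stood at 11.46, 11.16 and 11.17, with a difference of -0.12 (95% CI -0.35 to 0.11, limma adjusted p = 0.311). With quantile normalization that difference was -0.32 and passed (limma adjusted p = 0.0123).

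PDP1 stood at 4.04, 4.34 and 4.71 log2 CPM with siSF3B1. In each library-number set the siSF3B1 library was above its siCtrl hypoxia partner, although the groups overlapped as wholes. The difference was 0.39 (95% CI -0.02 to 0.80) and did not pass without the block (limma adjusted p = 0.0839), while with the sets as a block it had an SE of 0.0846 and passed (limma adjusted p = 0.00100). It also passed in limma with quantile normalization (0.45, adjusted p = 0.0471), with median-centred libraries (0.45, adjusted p = 0.0414), without siCtrl hypoxia library 8 (0.54, adjusted p = 0.0296) and without siSF3B1 library 3 (0.55, adjusted p = 0.0192), that is in 5 of 18 alternatives. It was 0.22 without siSF3B1 library 9 (limma adjusted p = 0.314), 0.26 with plain read totals (limma adjusted p = 0.228) and 0.29 without siCtrl hypoxia library 2 (limma adjusted p = 0.243).

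The third comparison set siSF3B1 cells at 1% O2 against siCtrl cells at 21% O2, and so shares its libraries with the other comparisons. PDK1 (1.71, SE 0.0974), PDK3 (1.70, SE 0.235), LDHA (1.22, SE 0.115) and LDHB (0.34, SE 0.0660) were higher on the log2 scale, with limma adjusted p-values of 6.29e-07, 0.000140, 1.14e-05 and 0.00125. PDHA1 (-0.52, SE 0.0729), MPC2 (-0.45, SE 0.0818) and PDHB (-0.41, SE 0.0774) were lower, with limma adjusted p-values of 0.000159, 0.000813 and 0.00102. The 7 of 10 called stand beside 62.4% of all genes tested, 34.1% higher and 28.3% lower, so this share is close to the background. PDK2 (-0.11), PDP1 (0.33) and MPC1 (-0.33) did not pass, with limma adjusted p-values of 0.638, 0.182 and 0.0907. LDHB lost its call with quantile normalization (0.14, limma adjusted p = 0.0842). MPC1 passed in limma with plain read totals (-0.49, adjusted p = 0.0183) and without siSF3B1 library 6 (-0.44, adjusted p = 0.0317), and PDP1 without siSF3B1 library 3 (0.49, adjusted p = 0.0469). With plain read totals the calls over all genes went from 4473 higher and 3705 lower to 3173 higher and 4828 lower.

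For the 3 genes that rose at 1% O2, the level with siSF3B1 can be placed on the scale from normoxia to siCtrl hypoxia. PDK1 in libraries 3, 6 and 9 stood at 60.3, 57.8 and 63.6% of its log2 rise. PDK3 stood at 103, 67.1 and 82.8%, and LDHA at 105, 83.3 and 83.9%. All 3 PDK1 values lie below all PDK3 and LDHA values. Whether the genes differ in this share was not tested, and each gene's values rest on the same siCtrl libraries.

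Levels of different genes can be compared only per length, here as CPM per kb of merged GENCODE 29 exon. LDHA led in every group, at 170 ± 4.91 CPM per kb in normoxia (SD, n = 2), 434 ± 50.6 in siCtrl hypoxia (SD, n = 3) and 398 ± 47.8 with siSF3B1 (SD, n = 3). LDHB followed at 114, 117 and 144 CPM per kb, with no overlap with LDHA or with the genes below it. MPC2 (17.5, 16.4 and 12.8) and PDHA1 (16.6, 16.2 and 11.6) came next and overlapped at the level of libraries in both siCtrl groups. PDHB (13.1, 11.3 and 9.83) was below PDHA1 in every group without overlap. MPC1 stood at 4.90, 4.17 and 3.93 CPM per kb, well below its partner, as MPC2 over MPC1 was 3.59, 3.96 and 3.31 in the same order. By library this ratio overlapped between all groups.

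The regulators stood lowest, and their order changed with the group. In normoxia PDK2 (3.04 CPM per kb) and PDP1 (2.93) overlapped each other and were above PDK1 (0.715) and PDK3 (0.650), which also overlapped. In siCtrl hypoxia PDK1 (5.10) was above MPC1 and all other regulators without overlap, and PDP1 (2.83), PDK3 (2.68) and PDK2 (2.67) did not differ beyond their spread. With siSF3B1, neighbours in the order MPC1, PDP1 (3.74), PDK2 (2.88), PDK1 (2.35) and PDK3 (2.16) overlapped. By the longest transcript in place of all exons, PDHA1 ranked 3 and MPC2 4 in both siCtrl groups. In siCtrl hypoxia MPC1 then ranked 6, PDK1 7, PDK2 8, PDP1 9 and PDK3 10, so PDK1 was no longer above MPC1, and no source used here gives the authors' gene lengths.

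The kinase transcripts were also compared in sum and in makeup. The sum of PDK1, PDK2 and PDK3 was 4.40 ± 0.0589 CPM per kb in normoxia (SD, n = 2), 10.4 ± 1.16 in siCtrl hypoxia (SD, n = 3) and 7.39 ± 1.35 with siSF3B1 (SD, n = 3). PDK1 made up 15.4 and 17.1% of that sum in normoxia, 46.0, 51.6 and 49.2% in siCtrl hypoxia and 26.6, 36.5 and 34.2% with siSF3B1. No library of any group fell within the range of another group. The mean share differed by 32.7 percentage points between siCtrl hypoxia and normoxia and by -16.5 between siSF3B1 and siCtrl hypoxia, each with an exact two-sided permutation p of 0.1, the smallest that groups of this size allow. PDK2 held 69.0% in normoxia, 25.7% in siCtrl hypoxia and 38.6% with siSF3B1, and PDK3 held 14.8, 25.4 and 28.98%. With no division by length the PDK1 share was 34.9, 73.2 and 57.3%, so its size depends on the lengths used, while the groups differed in the same order. Set against the phosphatase PDP1, the kinase sum was 1.52 ± 0.253 times its level in normoxia (SD, n = 2), 3.74 ± 0.599 in siCtrl hypoxia (SD, n = 3) and 2.08 ± 0.798 with siSF3B1 (SD, n = 3). By library this ratio was 1.70 and 1.34 in normoxia and 3.00, 1.69 and 1.56 with siSF3B1. The siSF3B1 libraries 6 and 9 thus lay within the normoxia range, and library 3 raised the siSF3B1 mean. PDP2, the second catalytic phosphatase subunit, is not part of this ratio.

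**Figure D3:**
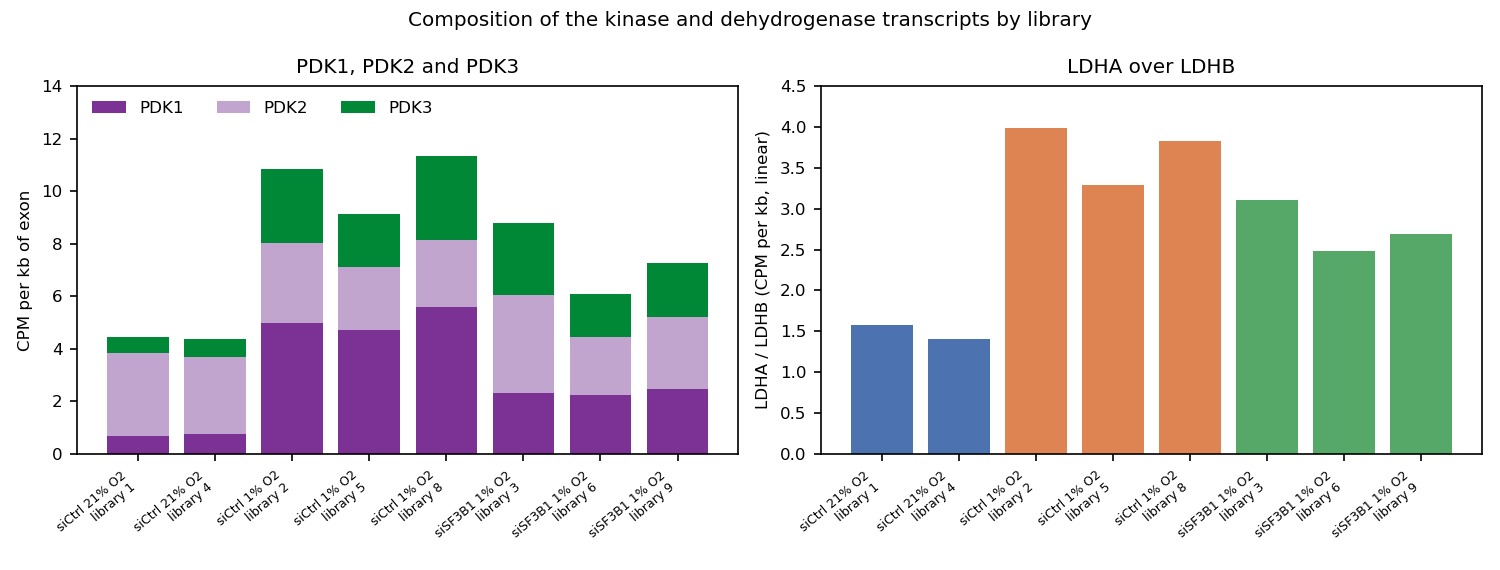
Left, CPM per kb of exon of PDK1, PDK2 and PDK3, stacked, in each library. Right, LDHA over LDHB as a linear ratio of CPM per kb in each library. The PDK1 segment is largest in siCtrl libraries at 1% O2, and LDHA over LDHB is lowest in the libraries at 21% O2 and intermediate with siSF3B1.

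The balance of the lactate dehydrogenase subunits was compared within libraries. There LDHA exceeded LDHB by 1.72 and 1.55 on the log2 CPM scale in normoxia, by 3.05, 2.77 and 2.99 in siCtrl hypoxia and by 2.69, 2.37 and 2.48 with siSF3B1. No groups overlapped. The mean differed by 1.31 between siCtrl hypoxia and normoxia, by -0.42 between siSF3B1 and siCtrl hypoxia and by 0.88 between siSF3B1 and normoxia. Each exact two-sided permutation p was 0.1, the smallest possible, and 0.1 after Benjamini-Hochberg adjustment over the 6 tests of this kind. Per length, LDHA over LDHB was 1.49 ± 0.121 in normoxia (SD, n = 2), 3.70 ± 0.367 in siCtrl hypoxia (SD, n = 3) and 2.76 ± 0.318 with siSF3B1 (SD, n = 3). PDHA1 over PDHB was 1.27, 1.44 and 1.18 in the same order. Its normoxia and siSF3B1 libraries overlapped, and the siCtrl hypoxia libraries lay above both. By the longest transcript in place of all exons, LDHA over LDHB was 1.98, 4.90 and 3.66, so its size depends on the lengths used.

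The genes whose log2 levels were most like PDK1 over the 8 libraries, among 12081 genes, were INSIG2 (Pearson's r 0.9987), PGAM4 (0.9966), FAM210A (0.9942), AK4 (0.9934) and SPAG4 (0.9929). The 8 libraries fall into 3 groups, so r mostly reflects the group means and is a description. The size of a change does not enter r. INSIG2 differed by 2.39 at 1% O2 and by -0.94 with siSF3B1 on the log2 scale, AK4 by 2.05 and -0.90 and SPAG4 by 2.41 and -0.76. PGAM4 (0.85 and -0.35) and FAM210A (0.87 and -0.40) changed far less than PDK1. Those most like LDHA were ALDOA (0.9931), ATRN (0.9914), TTC30A (0.9877), PGM1 (0.9875) and TPI1 (0.9851). Of the other members PDK3 ranked 15 for LDHA (r 0.979) and 100 for PDK1 (r 0.927), and LDHA ranked 129 for PDK1 (r 0.914).

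Around the 10 genes, 30 further genes of pyruvate and 2-oxoacid metabolism were listed, of which 27 were in the table and 26 were tested. At 1% O2, 2 of 26 rose in limma and 0 fell (7.7% called), near the background of 5.65%. At an unadjusted p under 0.05, 3 were higher and 4 lower (11.5 and 15.4%), against 10.5 and 9.18% of all genes tested. The median was -0.05 on the log2 scale. GPT2, the mitochondrial alanine aminotransferase that interconverts pyruvate and alanine, stood at 3.43 and 3.56 log2 CPM in normoxia and at 5.01, 4.76 and 5.52 in siCtrl hypoxia. It rose by 1.60 (SE 0.192, limma adjusted p = 0.000732). BCKDK, which inhibits the related branched-chain complex, rose by 0.68 (SE 0.130, limma adjusted p = 0.0131), and its call was lost without normoxia library 4 (0.57, limma adjusted p = 0.154) and without siCtrl hypoxia library 2 (0.67, limma adjusted p = 0.0528). With the sets as a block 5 of 26 were called, PCK2, which makes phosphoenolpyruvate, also higher (0.53, limma adjusted p = 0.00889) and the phosphatase subunits PDP2 (-0.36) and PDPR (-0.24) lower, with limma adjusted p-values of 0.0247 and 0.0309. With plain read totals 2 were higher and 1 lower.

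With siSF3B1 4 of these 26 genes rose and 12 fell (61.5% called), a total near the background of 66.0% (35.0% higher and 30.9% lower). At an unadjusted p under 0.05, 19.2% were higher and 46.2% lower, against 36.7 and 32.4% of all genes tested. Whether these shares differ was not tested. The median of the 26 genes was -0.19. Scaling by plain read totals gave 1 higher and 14 lower, and centring libraries on their medians gave 6 higher and 11 lower. The partner subunits of the E1 genes moved unequally. DLAT, the acetyltransferase, fell by 0.53 (SE 0.0685, limma adjusted p = 7.62e-05) and DLD, the dihydrolipoamide dehydrogenase, by 0.35 (SE 0.0594, limma adjusted p = 0.000463). PDHX, which anchors DLD in the complex, rose by 0.25 (SE 0.0639, limma adjusted p = 0.00547), a call lost with plain read totals (0.12, limma adjusted p = 0.100). PDPR, which restrains the phosphatase, fell by 1.11 (SE 0.0666, limma adjusted p = 5.98e-07), while PDP2, the second catalytic phosphatase subunit, rose by 0.45 (SE 0.105, limma adjusted p = 0.00358). PDK4, the kinase with the lowest level, stood at 1.11 and 0.84 log2 CPM in normoxia, 0.33, 0.19 and -0.77 in siCtrl hypoxia and 0.69, 0.45 and 0.05 with siSF3B1. It passed in none of the comparisons, with -1.06 at 1% O2 (limma adjusted p = 0.125) and 0.47 with siSF3B1 (limma adjusted p = 0.207).

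GPT2 fell by 1.20 with siSF3B1 (SE 0.171, limma adjusted p = 0.000144), to 3.85, 3.77 and 4.07 log2 CPM, between normoxia and siCtrl hypoxia. Its libraries stood at 22.0, 17.0 and 35.7% of the log2 rise at 1% O2, lower than all values of PDK1. ME2, a mitochondrial malic enzyme that forms pyruvate, fell by 0.98 (SE 0.103, limma adjusted p = 1.74e-05). PC, pyruvate carboxylase, fell by 0.40 (limma adjusted p = 0.0315), and its call was lost in 6 of 18 alternatives. Against normoxia, 2 of 26 were higher and 9 lower (42.3% called), below the background of 62.4% (34.1% higher and 28.3% lower). Of the 9 lower, those with the smallest p were OGDH, of the related 2-oxoglutarate complex, and PDPR. OGDH differed by -1.52 (SE 0.0827, limma adjusted p = 5.25e-07) and PDPR by -1.36 (SE 0.0745, limma adjusted p = 5.30e-07). Among the higher was LDHD, another lactate dehydrogenase gene (0.69, SE 0.228, limma adjusted p = 0.0224). The LDHD call was lost in 3 of 17 alternatives, among them plain read totals (0.53, limma adjusted p = 0.0648) and without siSF3B1 library 6 (0.57, limma adjusted p = 0.0675). Without normoxia library 4, which leaves a lone normoxia library, the LDHD difference was 0.56. LDHD had only 30 to 58 reads per library. With plain read totals all 13 that were called were lower, and without normoxia library 1 the total was 7.

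**Figure D4:**
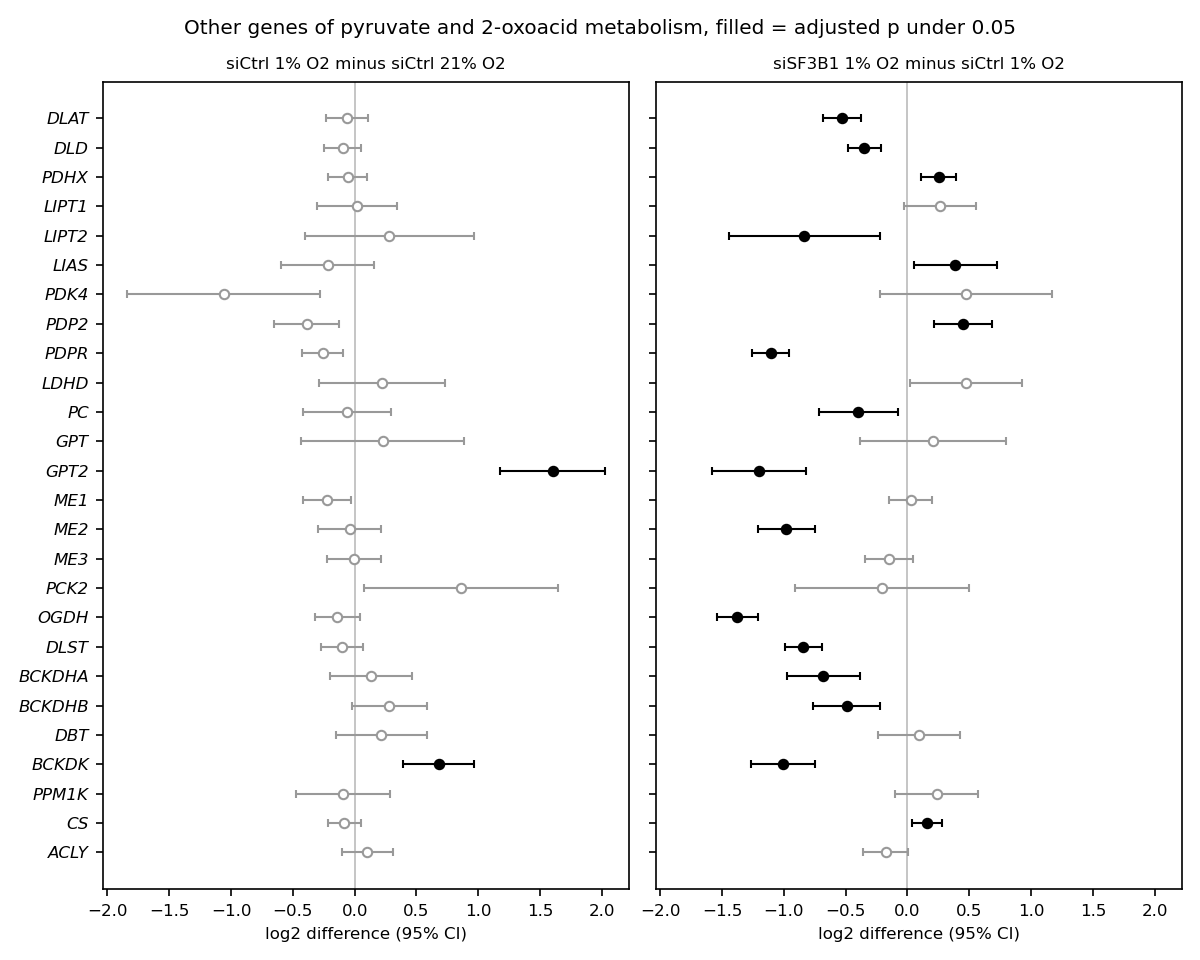
Difference in log2 CPM (horizontal axis) for the 26 further genes tested, at 1% O2 in siCtrl cells (left) and with siSF3B1 at 1% O2 (right). Points are limma estimates, whiskers are 95% confidence intervals and filled points have an adjusted p under 0.05. GPT2 and BCKDK are higher on the left and lower on the right.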

How the data were processed

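RNA was sequenced in 8 libraries of Panc1 cells. Per the submitters' processing notes, which give neither roles nor order, the tools were STAR 2.7.0a, Trimmomatic 0.35, featureCounts with Subread 1.5.0, SAMtools 1.9 and edgeR 3.24.3, on GRCh38.p13. The deposited table holds log2 CPM values, made by the authors with a prior count. All values came back as whole reads within 0.01 read. The filter on genes, the strand setting and the annotation are not given in the sources used here.

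The deposited log2 values were fitted with limma 3.58.1 in R 4.3.3, with 1 mean per group, all 8 libraries, 5 residual degrees of freedom and an intensity trend. Genes with a mean log2 CPM above 0 were tested (13112 of 15176), two-sided, with Benjamini-Hochberg adjustment over all of them, and a gene was called at an adjusted p under 0.05. Fold changes are on the log2 scale with the prior count, which understates changes of low genes. The fit was also run on simulated data, whose outcome is not reported here and is not used as evidence for the calls. Pairs of libraries within a group differed by more than sampling noise (chi-square per degree of freedom 8.65 to 21.4).

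Library numbers form the sets 1 to 3, 4 to 6 and 7 to 9. Deviations from group means correlated at 0.344 to 0.43 in all 7 pairs within a set. In the 14 other pairs they correlated at -0.423 to 0.059. Deviations cancel out within a group, so these 14 values follow in part from the 7 and are no separate contrast. The normoxia libraries 1 and 4, for example, gave 0.386 and -0.386 with siCtrl hypoxia library 2. The numbers pair the libraries by the 7 positive values only. The fit reported and the permutation tests have no block, and the fit with the block is an alternative. The pairing comes from the data, as the labels do not explain the numbers.

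The members, lists and tests were chosen with earlier results of these data known. One sub-list of the further pathway genes is not reported here, and counts over the list leave it out. Named genes are SF3B1, the 10 members, and the 5 genes most like PDK1 and LDHA with a mean log2 CPM of at least 1. Called genes of each sub-list were also eligible (at most 4 by p, or with none called at most 2 by size). Not every gene under this sub-list rule is given for every comparison. Of those called against normoxia, only LDHD, OGDH and PDPR are given with their values for that comparison. PDK4 at 1% O2 falls under that rule, PDK4 and LIAS with siSF3B1 and PCK2 and PDPR at 1% O2 were named after their values were seen, and overlapping genes are given for uncertainty. Alternatives were 3 scalings, 2 filters, voom on recovered reads, 2 other variance settings, the block, 2-group fits and leaving out each library.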

Additional observations from a re-analysis of the deposited data

How the results depend on the processing

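At 1% O2 the calls of PDK1, PDK3 and LDHA held in all 18 alternatives, with lowest and highest log2 differences of 2.76 and 2.90, 1.88 and 2.21, and 1.20 and 1.43. With siSF3B1 at 1% O2 the calls of PDK1, PDHA1 and MPC2 also held in all 18, while those of PDHB and LDHB did not, as given with them. With sets of library numbers as a block, hypoxia calls over all genes went from 741 to 1645 (1048 higher and 597 lower) and over the further pathway genes from 2 to 5. Among the 10 members that paired fit added PDP1 with siSF3B1 and changed no other call. Leaving out 1 library at a time gave 278 to 881 hypoxia calls over all genes, with 278 without normoxia library 1, 306 without normoxia library 4, 418 without siCtrl hypoxia library 2 and 411 without siCtrl hypoxia library 8. It gave 1 to 2 over the pathway genes in hypoxia. For siSF3B1 against normoxia it gave 7 to 13 pathway calls in place of 11, the lowest without normoxia library 1. With plain read totals hypoxia calls were 505 higher and 275 lower in place of 570 and 171. Where a lone normoxia library remained, it is assumed to vary like the other groups.

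Signs turned for values that had not passed the test, and for CS with siSF3B1. With quantile normalization the siSF3B1 difference at 1% O2 was 0.051 for MPC1 and -0.027 for CS, and with plain read totals it was -0.047 for PDK2. Against normoxia CS gave -0.134 with quantile normalization and -0.092 with plain read totals. Leaving out 1 library at a time, the difference at 1% O2 ranged from -0.215 to 0.098 for PDP1 (above 0 without normoxia library 4 or siCtrl hypoxia library 2), from -0.074 to 0.012 for PDHA1, from -0.013 to 0.094 for LDHB (both turned without normoxia library 1) and from -0.026 to 0.588 for LIPT2 (turned without normoxia library 4). With siSF3B1 at 1% O2 PDK2 ranged from -0.112 (without siSF3B1 library 3) to 0.259. Against normoxia PDK2 ranged from -0.306 to 0.065 (turned without siSF3B1 library 6) and ACLY from -0.169 to 0.018 (turned without normoxia library 1). The cause was not tested. Depth limits MPC1 (100 to 206 reads) and PDK3 in normoxia (69 and 88 reads) most.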

Other observations

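Genes of the complexes built like pyruvate dehydrogenase were compared between siSF3B1 and siCtrl at 1% O2. Of 7 tested genes of the 2-oxoglutarate and branched-chain complexes 5 fell in limma and the other 2 did not pass. The share called, 71.4%, is near the 66.0% of all genes tested, of which 30.9% were lower. OGDH, the E1 subunit of the 2-oxoglutarate complex, fell by 1.38 in log2 CPM (SE 0.0739, limma adjusted p = 3.17e-07), from 7.75, 7.88 and 7.84 log2 CPM in siCtrl hypoxia to 6.38, 6.59 and 6.37. DLST, its acyltransferase, fell by 0.84 (SE 0.0677, limma adjusted p = 2.98e-06). In the branched-chain complex BCKDHA fell by 0.68 and its kinase BCKDK by 1.01 (limma adjusted p = 0.00114 and 3.37e-05). Both OGDH and DLST had larger log2 differences than PDHA1 and PDHB, a difference that was not tested.

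LIPT2, which starts lipoate synthesis, fell by 0.83 (limma adjusted p = 0.0217), and its call was lost without siCtrl hypoxia library 2 (-0.82, adjusted p = 0.0568) or 8 (-0.76, adjusted p = 0.0666) or siSF3B1 library 9 (-0.55, adjusted p = 0.0773). LIAS, lipoate synthase, rose by 0.39 (SE 0.152, limma adjusted p = 0.0434), a call that held in 12 of 18 alternatives. It was lost with plain read totals (0.26, adjusted p = 0.160), without siCtrl hypoxia library 2 (0.42) or 8 (0.27), and without siSF3B1 library 3 (0.31), 6 (0.42) or 9 (0.43). CS, citrate synthase, rose by 0.16 (limma adjusted p = 0.0256), but the call held in 11 of 18 alternatives, was lost in 6 (among them without siCtrl hypoxia library 2, 5 or 8, at 0.16 each, and without siSF3B1 library 6, at 0.13), and the difference was -0.03 with quantile normalization.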
